A study of Mus musculus with 167 samples.

Results

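The muscle microRNA precursors *Mir1a-1*, *Mir133a-1*, *Mir133a-2*, *Mir133b* and *Mir206* were followed across the livers of Huntington's disease knock-in mice. They are 5 of the 1626 precursor rows of the small RNA count table, matched by transcript identifier to their gene names in the GENCODE M21 annotation. They were selected on these data: their levels in single livers, and in the groups those livers belong to, had already been seen when the family was chosen. Those levels and the genotype comparisons below are therefore given as descriptions. No p-value is printed for them, and counts of members past a threshold stand beside the share of all precursors past it, with nothing read from them.

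The study sequenced small RNA from livers of female and male C57BL/6 mice, 56 livers at 2 months of age, 56 at 6 months and 55 at 10 months. All knock-in mice were heterozygous for an *Htt* allele that carries human *HTT* exon 1 with an expanded or normal CAG repeat, named Q20, Q80, Q92, Q111, Q140 and Q175 after its nominal length. WT mice were littermates of the Q20 line. Each genotype had 8 livers at each age, except Q80 at 10 months with 7, and the Q175 line had arisen by spontaneous expansion within Q140. Each library came from bulk tissue, so that fewer cells of a type and less RNA per cell cannot be told apart.

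The miR-1 and miR-133 families are made in striated muscle, that is, in heart and skeletal muscle, where their precursors lie in pairs within a few transcripts driven by muscle transcription factors. miR-1 and miR-206 belong to one seed family and promote muscle differentiation, whereas miR-133a and miR-133b belong to another and act on muscle cell growth. miR-206 and miR-133b are characteristic of skeletal muscle, and miR-208a, miR-208b and miR-499 are encoded within myosin heavy chain genes of heart and slow muscle. In the liver the dominant microRNA is miR-122, made by hepatocytes.

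The mature sequences show the seed of each strand, bases 2 to 8, and which strands differ by a few bases only. RefSeq mature entries on GRCm38.p6 were matched for 3 of the 5 members and for 3 other striated muscle precursors. They are written 5′ to 3′ with the seed in capitals. No sequence is shown for *Mir133a-1* or *Mir133a-2*, and miR-1a-1-5p is the only strand of miR-1 shown.
mmu-miR-206-3p: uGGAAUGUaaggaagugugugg
mmu-miR-206-5p: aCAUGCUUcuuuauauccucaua
mmu-miR-1a-1-5p: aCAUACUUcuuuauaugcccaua
mmu-miR-133b-3p: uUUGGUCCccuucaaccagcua
mmu-miR-208a-3p: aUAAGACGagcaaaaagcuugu
mmu-miR-208b-3p: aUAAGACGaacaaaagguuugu
mmu-miR-499-5p: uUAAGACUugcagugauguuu
Counted from 1 at the 5′ end, with the base of the first-named strand written first, miR-206-5p and miR-1a-1-5p differ at 3 of 23 positions, G5A, C17G and U19C. Of these, G5A lies in the seed, so the seeds of these 5p strands differ. The strands miR-208a-3p and miR-208b-3p share a seed and differ at G10A, A16G and C18U.

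*Mir206* (chromosome 1, 20679010 to 20679082, plus strand, GRCm38) and *Mir133b* (20682769 to 20682887) lie 3.69 kb apart, each in an exon of *Gm28653*. *Mir1a-1* (chromosome 2, 180389048 to 180389124, plus strand) and *Mir133a-2* (180398379 to 180398482) lie 9.25 kb apart. GENCODE M21 places no other gene over either, and the RefSeq span of the non-coding gene *Mir1a-1hg* (180385604 to 180401802) holds both. The window around the start of *Mir1a-1hg*, 250 bases before to 50 after it (chr2:180385354-180385653, plus strand, RefSeq, GRCm38.p6), is shown because 2 members, both highest in the same single liver, lie behind it. Capitals mark matches to the E-box CANNTG, the motif bound by myogenic basic helix-loop-helix factors, which reads the same on both strands.
Mir1a-1hg start: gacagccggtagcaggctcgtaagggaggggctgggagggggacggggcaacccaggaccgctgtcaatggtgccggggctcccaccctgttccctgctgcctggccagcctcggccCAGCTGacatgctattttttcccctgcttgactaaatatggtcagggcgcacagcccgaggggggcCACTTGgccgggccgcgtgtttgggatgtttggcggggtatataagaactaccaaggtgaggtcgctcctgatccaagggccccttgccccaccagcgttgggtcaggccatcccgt
The window held 2 matches to CANNTG, and 39.6% of all 32851 windows of this length held at least as many. One of them was CAGCTG, found in 16.3% of windows.

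Counts were estimated per precursor and summed to between 1.69 M and 7.61 M per liver (median 3.27 M, where M is 1e6 counts). Levels are given as counts per 1e6 precursor counts (CPM), and 3 counts, taken as the floor of detection in a library, correspond to 0.394 to 1.77 CPM. *Mir133a-1* was the only member with counts in every liver, with a median of 21 counts (range 2 to 33516) and 6.22 CPM. It was at or below the floor in 3 livers and reached 10 counts in 138. *Mir1a-1* was at 0 in 80 livers and reached 10 counts in 13. The remaining members were close to absent: *Mir133a-2* was at 0 in 154 livers and reached 10 counts in 3, *Mir133b* was at 0 in 161 and *Mir206* in 145, and each of these last members exceeded 3 counts in 1 liver. Reads that match several copies had been divided between them, since 16 livers had a fractional count for *Mir133a-1* and 28 for *Mir1a-1*. The counts of *Mir133a-2* were fractional in 13 livers and those of *Mir133b* in 6, in each case every liver with any. The split among *Mir133a-1*, *Mir133a-2* and *Mir133b* and between *Mir1a-1* and *Mir1b* is therefore uncertain. The copy *Mir1a-2* was not analysed here.

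One liver was highest for all 5 members. The 10 month Q175 female F4 had 33516 counts of *Mir133a-1*, 1491 of *Mir1a-1*, 188 of *Mir133a-2*, 69 of *Mir206* and 13.3 of *Mir133b*. *Mir133a-1* made up 1.04% of all precursor counts in that liver and ranked 18 among its precursors, against a median of 7.65 CPM over the 55 livers of that age. On the per-length scale of the deposited FPKM values, the order in this liver was *Mir133a-1* at 119452, *Mir1a-1* at 6006, *Mir133a-2* at 561, *Mir206* at 293 and *Mir133b* at 34.6 FPKM. The summed level of the members was 10939 CPM, 1417 times the 10 month median of 7.72 CPM.

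**Figure D1:**
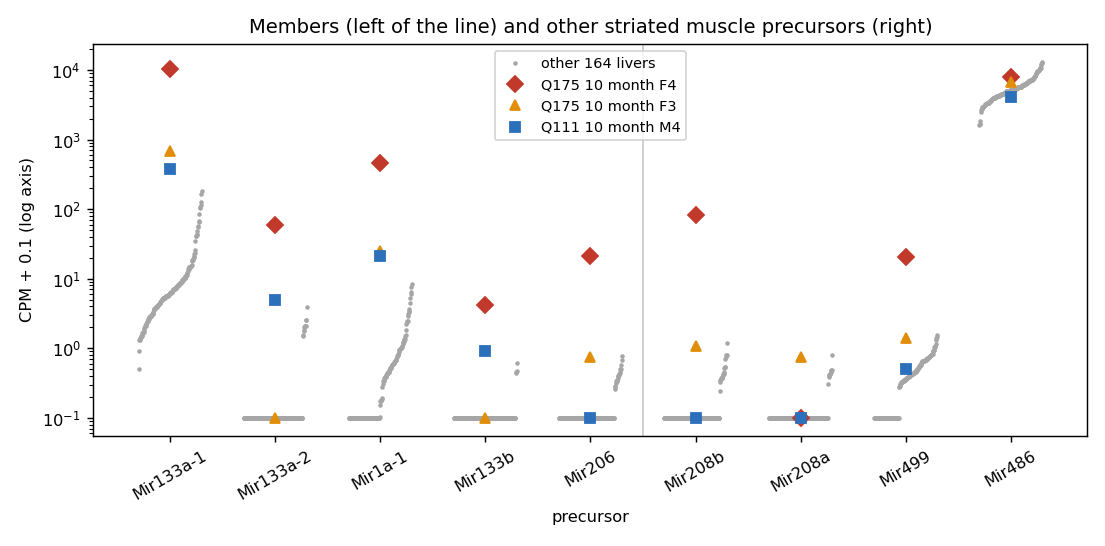
Levels of the 5 members and of 4 other striated muscle precursors in every liver, as CPM + 0.1 on a log axis, with the 3 livers of highest summed level in colour and the other livers in grey, ordered by value within each column. The red diamond, Q175 10 month F4, is highest for each member and for *Mir208b* and *Mir499*, but not for *Mir208a*, at 0, or *Mir486*.

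The members were also high in other livers, at levels far below that one. The 10 month Q175 female F3 had 690 CPM of *Mir133a-1* (2094 counts), with 75.7 counts of *Mir1a-1*, 2 of *Mir206* and none of *Mir133a-2* or *Mir133b*. The 10 month Q111 male M4 had 377 CPM (938 counts), with 52.0 counts of *Mir1a-1*, 12.2 of *Mir133a-2*, 2.03 of *Mir133b* and none of *Mir206*. The 6 month Q111 female F1 followed at 181 CPM and the 10 month Q92 female F4 at 163 CPM. All other livers had at most 126 CPM of *Mir133a-1*.

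With a limit of 5 times the median summed level of livers of the same age, 20 livers stood out, 16 of them female and 4 male. The lowest liver inside the limit, Q92 2 month M2, was at 5.68 times the median, and the highest outside it, Q80 6 month F2, at 4.14 times. They were 6 of the youngest 56 livers, 5 of 56 at 6 months and 9 of 55 at 10 months. By genotype, 3 of 24 WT livers did so, 1 of 24 Q20, 1 of 23 Q80, 5 of 24 Q92, 5 of 24 Q111, 2 of 24 Q140 and 3 of 24 Q175 livers. Livers of both control genotypes were among them, the highest being WT 2 month F3 with 65.9 CPM of *Mir133a-1* and Q20 2 month F1 with 55.1 CPM.

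*Mir133a-1*, encoded on chromosome 18 (10782909 to 10782976, minus strand) in an intron of *Mir133a-1hg* and antisense to an intron of *Mib1*, had group medians from 4.12 to 15.1 CPM at 2 months. Its lowest, median and highest CPM were 1.29, 5.99 and 65.9 in WT, 1.61, 4.12 and 55.1 in Q20, and 1.98, 4.93 and 104 in Q80. They were 1.35, 7.22 and 40.6 in Q92, 3.23, 6.89 and 12.9 in Q111, 2.98, 15.1 and 47.8 in Q140, and 1.54, 8.02 and 15.3 in Q175. Q140 had the highest median and Q20 the lowest, and the 7 ranges overlapped.

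At 6 months the ranges of the groups overlapped. The lowest, median and highest CPM of *Mir133a-1* were 1.86, 3.84 and 41.0 in WT, 2.34, 4.14 and 9.0 in Q20, 1.41, 4.09 and 20.2 in Q80, and 2.32, 7.84 and 35.3 in Q92. They were 0.803, 12.6 and 181 in Q111, 0.407, 3.04 and 8.33 in Q140, and 1.38, 6.96 and 56.7 in Q175. Q111 held both the highest liver of that age and the highest median, and the lowest median was that of Q140.

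At 10 months the highest livers were those of Q92, Q111 and Q175. The lowest, median and highest CPM of *Mir133a-1* were 1.23, 8.68 and 44.3 in WT, 2.80, 7.61 and 14.4 in Q20, 2.76, 4.14 and 9.52 in Q80, and 3.88, 11.5 and 163 in Q92. They were 1.47, 15.4 and 377 in Q111, 4.21, 5.97 and 25.5 in Q140, and 1.22, 10.1 and 10392 in Q175. The order of the medians, Q111, Q92, Q175, WT, Q20, Q140 and Q80, did not separate neighbours beyond their spread, and in each group with a high liver most livers lay with the rest. In Q175, 2 livers exceeded every one of the 16 control livers and 6 did not, while 3 of 8 livers did so in Q92 and 3 of 8 in Q111. In none of the 15 comparisons of a longer allele with its controls did the ranges of the groups lie apart. The controls at 6 months include the WT livers here. How often such ranges lie apart over all precursors was not computed, so nothing is read from this count.

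**Figure D2:**
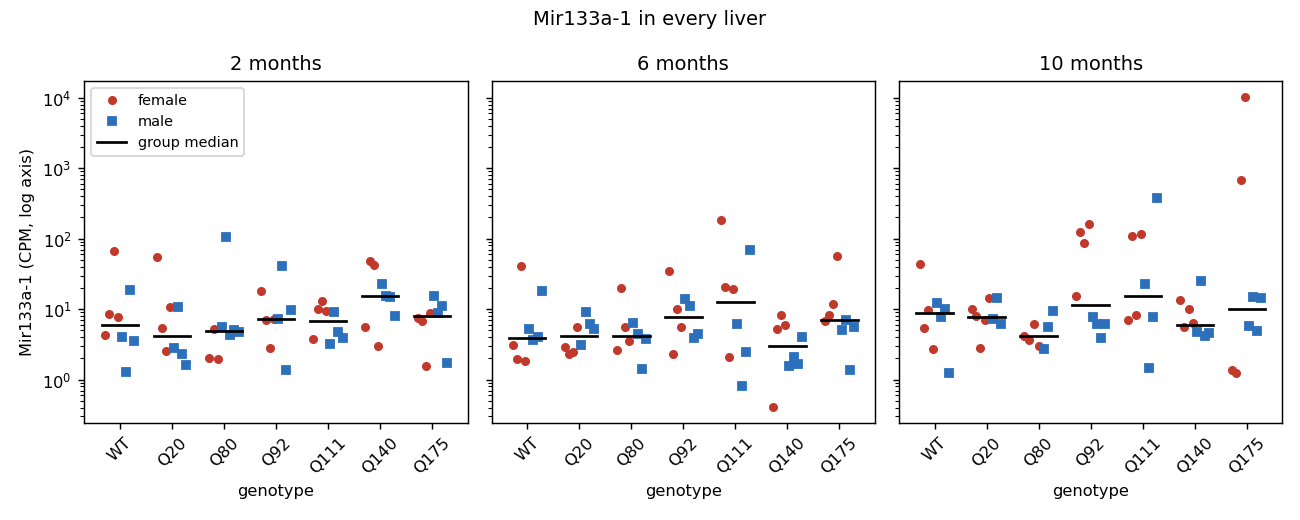
*Mir133a-1* in each liver by genotype and age, as CPM on a log axis, with females as red circles, males as blue squares and the group median as a black bar. Single livers rise above 100 CPM at each age, up to 10392 CPM in Q175 at 10 months, while the group medians stay between 3.04 and 15.4 CPM.

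Longer alleles were compared with Q20 and WT livers of the same age, or with Q20 alone at 6 months, by edgeR's quasi-likelihood test over all precursors with at least 10 counts in at least 7 livers of the age. *Mir133a-1* passed this filter at every age and *Mir1a-1* at 10 months, whereas *Mir133a-2*, *Mir133b* and *Mir206* passed it at none. At 10 months the log2 difference of *Mir133a-1* from controls was -0.81 ± 0.49 (SE) in Q80, 2.00 ± 0.54 in Q92, 2.73 ± 0.86 in Q111, 0.21 ± 0.40 in Q140 and 5.44 ± 1.86 in Q175. That of *Mir1a-1*, the precursor of miR-1, which promotes muscle differentiation, was -1.55 ± 1.11 in Q80, 2.17 ± 1.0 in Q92, 3.13 ± 0.94 in Q111, -0.14 ± 1.03 in Q140 and 6.70 ± 1.88 in Q175. Both precursors had the same sign in all alleles but Q140, whose values lay within 1 SE of 0, and the median log2 difference over all tests at that age was -0.03. Without the 3 livers of highest summed level, Q175 10 month F4 and F3 and Q111 10 month M4, the log2 difference of *Mir133a-1* was 0.16 ± 0.76 in Q175 and 1.89 ± 0.61 in Q111, and *Mir1a-1* no longer passed the filter. With the replicate number as a block (replicate block), that in Q175 was 2.16 ± 2.61. None of the 10 values was called by edgeR at an adjusted p-value under 0.05, and 0.0637% of the 1570 tests over all precursors were. At an unadjusted p-value under 0.05, 6 of the 10 passed, beside 6.75% of all tests, and DESeq2 called 4, beside 1.21%.

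At 6 months the log2 difference of *Mir133a-1* from Q20 was 2.87 ± 1.02 (SE) in Q111, 1.32 ± 0.55 in Q92, 1.13 ± 0.60 in Q175, 0.49 ± 0.48 in Q80 and -0.37 ± 0.57 in Q140. At 2 months the values ran from -0.48 ± 0.62 in Q111 to 0.94 ± 1.09 in Q140. In Q111 and Q175 the value at 2 months was below 0 by less than 1 SE. None of the 5 values at either age was called by edgeR, against 8.24% of 1565 tests over all precursors at 6 months and 2.41% of 1580 at 2 months. At an unadjusted p-value under 0.05, 2 passed at 6 months and 0 at 2 months, beside 19.2% and 14.3% of all tests. DESeq2 called 1 and 0, beside 11.1% and 4.56%. With the replicate block the value in Q111 at 6 months was 1.60 ± 1.08. The comparisons at one age share their control livers, so their values are not independent.

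Against CAG length, taken as a number with WT at 7 repeats, the log2 change of *Mir133a-1* per 100 repeats was -0.14 ± 0.40 (SE) at 2 months, 0.69 ± 0.57 at 6 months and 2.69 ± 0.77 at 10 months, and that of *Mir1a-1* was 3.18 ± 0.99 at 10 months. None was called by edgeR, while the share over all precursors was 7.91%, 2.24% and 0%, from the youngest to the oldest mice. At an unadjusted p-value under 0.05, 0, 0 and 2 members passed at these ages, beside 25.3%, 16.9% and 10.5% of all precursors, and DESeq2 called 0, 0 and 1, beside 11.4%, 5.43% and 0.318%. At 10 months the slope of *Mir133a-1* was 0.89 ± 0.48 without the same 3 livers, and with the replicate block it was 1.03 ± 0.67, and that of *Mir1a-1* 2.05 ± 0.83. The WT and Q20 livers differed in *Mir133a-1* by -0.12 ± 0.93 at 2 months, -1.12 ± 0.58 at 6 months and -0.23 ± 0.50 at 10 months, Q20 minus WT on the log2 scale. No member was called by edgeR or DESeq2 in that comparison, and 0 passed an unadjusted p-value of 0.05 in edgeR, beside 4.43%, 62.3% and 0.955% of all precursors at the 3 ages. In DESeq2, whose shares called were 0%, 57.2% and 0%, the value at 6 months passed it unadjusted. Over all precursors, the share called was 0% in the youngest mice, 57.2% at 6 months and 0% at 10 months. At 6 months the WT libraries carry names from another numbering, so that genotype and library set cannot be told apart.

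Females and males were then compared. Sex was not named in the choice of the members, but the levels of single livers were known then and enter this comparison. Of the 20 livers that stood out, 16 were female. The p-values for sex are therefore given as a description and are not an independent test. At 10 months *Mir133a-1* and *Mir1a-1* were lower in males by edgeR's quasi-likelihood test, with log2 changes of -2.64 ± 0.76 (SE) and -2.92 ± 0.91, male minus female, and Benjamini-Hochberg adjusted p-values of 0.00373 and 0.0078. Both of the 2 members tested were called, and so were 44.6% of all 314 precursors. *Mir1a-1* had passed the filter through 8 livers with at least 10 counts, 7 female and 1 male. Its call is therefore not independent of the filter. The lowest, median and highest summed level of the members was 1.22, 9.91 and 10939 CPM in 29 females and 1.23, 7.08 and 403 CPM in 26 males. The ranges of the sexes overlapped. The library names carry an L tag that no label defines and that is called lane here. Within the 10 month lanes that held both sexes, the mean log2 difference of the summed level, male minus female, was -2.28 in lane 2 (9 females, 13 males), -1.23 in lane 3 (9 and 5) and -0.01 in lane 8 (10 and 6), so that it was not seen in every lane. *Mir1a-1* was not called with no batch term (-1.92, adjusted p = 0.0846) or by DESeq2 (-2.33, adjusted p = 0.0618). The sample names of 2 libraries, Q20 10 month F1 and Q80 2 month M1, carry the cage code of the other sex, and without the first of them the changes were -2.75 and -2.99, with edgeR adjusted p-values of 0.0028 and 0.00585.

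Both calls were lost without 1 liver. It was highest for every member, and its level was among those known when the members were chosen. Without Q175 10 month F4, the changes were -1.40 for *Mir133a-1* and -1.09 for *Mir1a-1*, with edgeR adjusted p-values of 0.0656 and 0.254, and neither was called. Leaving out any other of the 55 livers kept both calls, and without the high male Q111 10 month M4 the changes were -3.59 and -5.13. With Q175 10 month F4, Q175 10 month F3 and Q111 10 month M4 left out together, *Mir133a-1* was called at -1.85 ± 0.48 (SE, edgeR adjusted p = 0.00122). *Mir1a-1* then no longer passed the filter. In a two-sided permutation test of sex within genotype on the log2 summed CPM of the members, chosen after seeing the data, the difference at 10 months was -1.05 (p = 0.0806, adjusted over 3 ages 0.183), and -0.70 without Q175 10 month F4 (permutation p = 0.156).

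**Figure D3:**
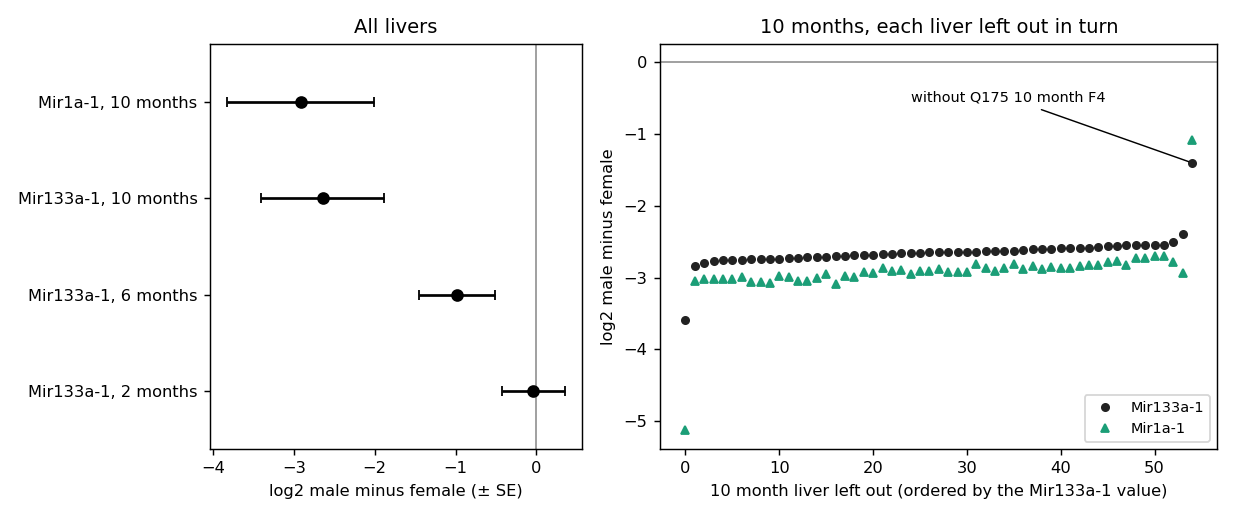
Left, log2 difference, male minus female, with its SE for the members that passed the filter at each age. Right, the same difference at 10 months with each of the 55 livers left out in turn: the value of *Mir133a-1* moves from -2.64 with all livers to -1.40 without Q175 10 month F4 and to -3.59 without Q111 10 month M4.

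At 6 months *Mir133a-1* differed by -0.99 ± 0.47 (SE) between males and females (edgeR adjusted p = 0.0875), and at 2 months by -0.04 ± 0.39 (adjusted p = 0.954). Neither was called, beside 41.5% of 313 and 39.6% of 316 precursors. DESeq2 called neither, beside 41.9% and 40.2% of all precursors, and 1 of the 2 values, that at 6 months, passed an unadjusted p-value of 0.05 in edgeR, beside 48.6% and 48.4%. The permutation test gave -0.59 (permutation p = 0.122) and -0.16 (permutation p = 0.672) for the summed level. The CAG length by sex interaction was called by edgeR for no member at any age, as for 0% of all precursors at each of the 3 ages. For the members, 2 of 2 interaction values at 10 months and 0 of 1 at 2 and at 6 months passed an unadjusted p-value of 0.05, beside 11.1%, 6.01% and 4.15% of all precursors.

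The pooled ratio of *Mir1a-1* to *Mir133a-1* was similar in the highest liver, the other high livers and the rest. There were 44.5 counts of *Mir1a-1* per 1000 of *Mir133a-1* in Q175 10 month F4 (95% exact binomial interval 42.2 to 46.9), 42.7 in the pooled counts of the other 19 livers that stood out (38.0 to 47.8) and 42.6 in those of the remaining 147 livers (35.7 to 50.2). These intervals cover counting error only, and they overlapped, while *Mir133a-1* ranged from 0.407 to 10392 CPM over the same livers. In the 20 single livers that stood out the ratio ran from 0 to 122 per 1000, with a median of 43.4. Of the 20 exact intervals, 17 held 44.5, among them that of Q175 10 month F4, whose own ratio this is. The exceptions were Q111 6 month M4 at 122 (79.5 to 181) and Q92 6 month F1 and WT 10 month F1, at 0 of 97 and 0 of 121 counts, which allow up to 38.8 and 31.0. Over all livers, log2(CPM + 0.5) of both precursors correlated with Pearson's r = 0.85 and Spearman's rho = 0.65, and with r = 0.52 and rho = 0.54 in the 147 livers that did not stand out. The points share their library totals, and the values are given as a description. *Mir133a-2* per 1000 counts of *Mir133a-1* was 5.62 (4.83 to 6.47), 8.28 (6.26 to 10.6) and 7.22 (4.53 to 10.6) in the same sets of livers, with the copies sharing reads. Single livers lay on both sides of these values, with 0 in Q175 10 month F3, which allows up to 1.76, and 23.2 (12.0 to 41.2) in Q92 10 month F4. Every *Mir133a-2* count above 0 was fractional and was rounded for these intervals. They do not cover the error of dividing shared reads, so the spread between livers is not read.

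**Figure D4:**
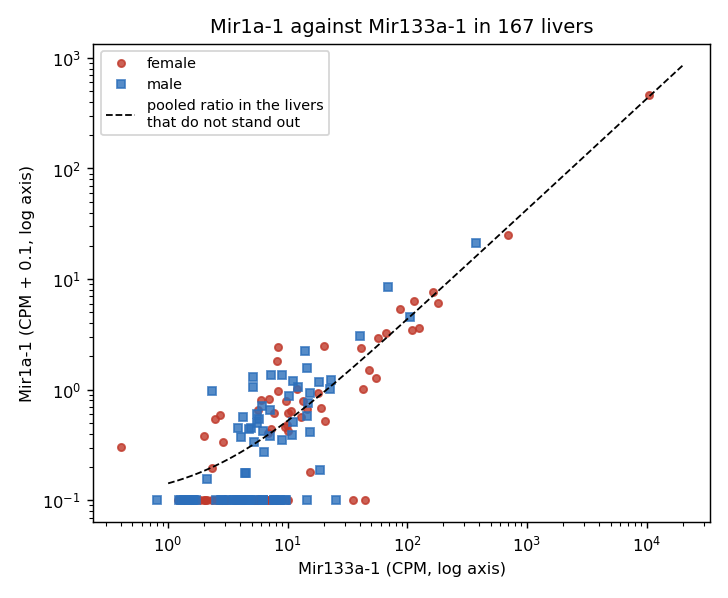
*Mir1a-1* (CPM + 0.1) against *Mir133a-1* (CPM) in each liver, both on log axes, with females in red and males in blue. The dashed curve is the pooled ratio of the 147 livers that did not stand out, 42.6 counts of *Mir1a-1* per 1000 of *Mir133a-1*, and the liver at the upper right, Q175 10 month F4, lies close to it at 44.5.

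*Mir133b* stood at 0.396 (0.207 to 0.663), 0.557 (0.149 to 1.40) and 0.925 (0.182 to 2.59) per 1000 counts of *Mir133a-1* in the same sets, with intervals that overlapped. Its counts, all fractional where not 0, share reads with the *Mir133a* copies, so these ratios are uncertain. The ratios of *Mir206*, *Mir208b* and *Mir499* differed beyond counting error between some of the sets. *Mir206* stood at 2.06 counts per 1000 of *Mir133a-1* in Q175 10 month F4 (exact interval 1.60 to 2.61) and at 0.547 in the other 19 livers that stood out (0.149 to 1.40). *Mir208b*, which lies in an intron of *Myh7*, the slow and cardiac beta-myosin gene, stood at 7.82 (6.90 to 8.83) with 262 counts in that liver, at 1.43 (0.295 to 4.19) with 3 counts in Q175 10 month F3 and at 0 of 938, which allows up to 3.94, in Q111 10 month M4. Its interval in the highest liver lay above those of the next 2 livers and of the pooled other 19, at 0.684 (0.222 to 1.60), but overlapped that of the 147 livers that did not stand out, at 7.38 (4.77 to 10.9). *Mir499*, in an intron of *Myh7b*, gave 65 counts in Q175 10 month F4 and 1.94 per 1000 (1.5 to 2.47), with an interval that overlapped that of the other 19, 3.01 (1.89 to 4.56). *Mir208a*, in an intron of the alpha-myosin gene *Myh6* and the cardiac member of the pair, was at 0 in the highest liver and reached no more than 2 counts in any. In the pooled counts of those 147 livers, *Mir499* stood at 46.9 per 1000 of *Mir133a-1* (39.8 to 55) and *Mir206* at 6.20 (3.83 to 9.49), above their ratios in the highest liver. These ratios rest on 159 and 21 counts, and that of *Mir208b* on 25. Over all livers, 11 exceeded the floor of 3 counts for *Mir499*, 1 for *Mir206* and 2 for *Mir208b*. The ratios of the 147 livers thus pool counts mostly at or below the floor, and no composition is read from them.

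Among the other striated muscle precursors, only *Mir486*, which is also made in erythroid cells, passed the filter on low counts. It was present in every liver (median 16286 counts) and was called for CAG length at 2 months by edgeR, with a log2 change of 0.45 ± 0.13 (SE) per 100 repeats (adjusted p = 0.0414), and in no other comparison. Its counts followed those of *Mir133a-1* weakly, with Pearson's r = 0.12 and Spearman's rho = 0.17 over all livers on the log2 scale. *Mir1b*, *Mir208a*, *Mir208b* and *Mir499* were not tested, and *Mir378a* was not analysed here.

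Few precursors other than those of muscle were extreme in Q175 10 month F4. Of its 283 precursors with at least 10 counts, 12 were at the maximum of their age, and 7 of these exceeded the next liver at least 2-fold. All 7 were striated muscle precursors: *Mir208b* (82.1-fold), *Mir206* (32.4-fold), *Mir1a-1* (18.5-fold), *Mir133a-1* (15.1-fold), *Mir499* (14.8-fold), *Mir133a-2* (11.9-fold) and *Mir133b* (5.03-fold). The next, *Mir129-1*, exceeded the second liver 1.36-fold. This liver was picked by the summed level of the members, which were chosen with that level known. Of the 7, only *Mir208b* and *Mir499* are not members and were not fixed by that choice. *Mir133a-2* and *Mir133b* share reads with *Mir133a-1*, so their values may not be separate observations.

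Markers of other cell types were set beside this liver, each as the summed CPM of a list. Hepatocyte precursors, 5 of 6 named ones with a row, summed to 294923 CPM in it, within the 259461 to 483444 CPM of the 55 livers of that age, and ranked 47. The 6 smooth muscle and mesenchyme precursors summed to 32138 CPM (rank 12, range 15413 to 122999), the 3 erythroid ones to 9394 CPM (rank 5, range 3465 to 14740) and the 4 leukocyte ones to 2825 CPM (rank 21, range 1638 to 5431). The 4 pancreas precursors stood at 13.3 CPM (rank 21, range 2.81 to 251), the 7 epithelial ones at 1625 CPM (rank 40, range 1320 to 11230) and the 7 neural ones at 88.4 CPM (rank 9, range 39.5 to 241). None of these 7 sums was at its extreme in that liver. One neural precursor was at 0 in all 10 month livers, and no other marker with a row was.

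Over the livers of each age, the correlations of these sums with the summed level of the members ran from -0.27 to 0.41. Spearman's rho over 56, 56 and 55 livers at 2, 6 and 10 months was -0.26, -0.27 and -0.20 for the hepatocyte sum, 0.18, 0.31 and 0.20 for smooth muscle and mesenchyme, and 0.22, 0.30 and 0.24 for the erythroid sum. For the pancreas sum it was 0.16, 0.30 and 0.29, and for the epithelial sum 0.27, 0.18 and 0.32. It was 0.23, -0.01 and 0.21 for the leukocyte sum and 0.04, -0.08 and 0.41 for the neural sum. The female and male medians of the pancreas sum were 10.8 and 4.39 CPM at 2 months, 15.1 and 6.45 CPM at 6 months and 15.9 and 6.67 CPM at 10 months. The part of these cell types in the levels of the members was not tested.

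Among the 287 other precursors that passed the filter at all ages, those closest to the summed level of the members, by the mean of the within-age Spearman correlations, were *Mir200c* (rho = 0.40), *Mir451a* (0.37), *Mir205* (0.36), *Mir23b* (0.33), *Mir141* (0.32), *Mirlet7c-1* (0.30), *Mir98* (0.28) and *Mir10b* (0.27). *Mir200c*, *Mir141* and *Mir205* are epithelial precursors and *Mir451a* is erythroid. The 287 values ran from -0.25 to 0.40 with a median of 0.07.

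The 3 livers with the highest summed level carried the same L tag, called lane 2 here, in their library names. At 10 months the 22 livers of lane 2 had a median summed level of 7.37 CPM, 7.08 CPM without Q175 10 month F4, against 8.45 CPM in the 33 livers of all other lanes. Of the 9 livers that stood out at that age, 4 were in lane 2 and 5 in other lanes. The level of the members was not higher with depth, since Spearman's rho of the summed CPM with the total count was 0.01 at 2 months, -0.35 at 6 months and -0.11 at 10 months.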

How the data were processed

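Small RNA was extracted from flash-frozen liver and sequenced as single-end, strand-specific reads on Illumina instruments; the study's methods name STAR on mm10 and HTSeq. The authors deposited estimated counts per precursor, with fractional values where copies share reads, and FPKM values; both hold 1626 precursor rows, of which 1228 were named from GENCODE M21. Counts had been assumed to be whole, and were rounded for testing.

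The members and lists were chosen with earlier results of these data known. CPM was computed over all precursor counts (1.69 M to 7.61 M per liver, M being 1e6). Sex, CAG length, allele and Q20 against WT were tested within each age with edgeR 4.0.16 (TMM factors, quasi-likelihood, Benjamini-Hochberg adjustment) on precursors with at least 10 counts in at least 7 livers, with lane (2 and 10 months) or index type (6 months) as batch. Lane and index type are readings of the L tag and of the LB or V tag in the library names, which the labels do not define. The 6 month WT livers were left out of the 6 month sex, CAG and allele fits. The sex and Q175 fits at 10 months were tested on simulated counts of precursors that pass the filter, with no outlying liver. The filter itself, and fits to rows with single high livers, were not tested in this way. Alternatives included RLE factors, DESeq2 1.42.0, no filter, no batch term and leaving out livers. Precursors named besides the members were the other striated muscle list, the 8 closest by within-age correlation and, for its level in the highest liver, *Mir129-1*. The labels do not say more of how replicates were taken, so p-values measure the spread between these livers. Intervals cover counting error only, were taken on rounded counts, and do not cover the division of shared reads.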

Additional observations from a re-analysis of the deposited data

Results flagged for a closer look

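In 4 of the group tests a single liver lay further from the rest of its group than Dixon's criterion at the 95% level allows for 8 livers (0.526), taken on log2(CPM + 0.5) for a member or pair of copies that reached 10 counts in the group. There were 30 such tests. Chance marks about 1 in 20 groups, but that rate does not apply here, since the members were chosen with high single livers in view and a group entered only through a liver with 10 counts. The values are a description.

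*Mir206* and *Mir133b* were each carried by 1 liver of the 10 month Q175 group, F4, at 21.4 CPM and 4.11 CPM. The other 7 livers had at most 0.659 CPM of *Mir206* and none of *Mir133b*, for which the criterion was then met by any value above 0. The *Mir133b* count in F4 was fractional, from reads shared with the *Mir133a* copies. Both copies of *Mir133a* together were at 106 CPM in Q80 2 month M2, a male, where the other 7 livers of that group lay between 1.98 and 7.56 CPM. *Mir1a-1* was at 3.17 CPM in WT 2 month F3, a control liver, with at most 0.511 CPM in its 7 group mates. Although Q175 10 month F4 was also highest for *Mir133a-1* and *Mir1a-1*, it was not marked for these, since the second liver of its group, F3, was high as well.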

How the results depend on the processing

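Of 99 counts of members called under another setting, 86 were unchanged. Some of these could not change. The 3 livers left out by the quartile rule are all 10 month livers, so at 2 and 6 months that setting repeats the same fits. Q20 against WT at 6 months had no batch term, so settings of the batch repeat it. At 10 months the 2 sex calls became 3 with no filter on low counts (11.6% of all precursors called), 1 under DESeq2 (43.9%), 1 with no batch term (43%) and 1 (44.9%) without the 3 livers above the third quartile plus 3 interquartile ranges, where *Mir1a-1* no longer passed the filter. They became 0 (42.3%) when Q175 10 month F4 and F3 were left out together, a setting chosen after seeing the data, and ranged from 0 to 2 with each liver left out in turn, 0 only without Q175 10 month F4. In the allele comparisons, 0 calls became 8 of 19 at 10 months (1.4% of all tests) and 1 of 16 at 6 months (2.97%) with no filter, 4 of 10 (1.21%) and 1 of 5 (11.1%) under DESeq2, and 2 of 10 at 10 months (0.51%) with no batch term. For CAG length at 10 months, 0 calls became 1 of 5 with no filter (0.0792%), 1 of 2 under DESeq2 (0.318%) and 2 of 2 with no batch term (0.637%). The cause was not tested. In edgeR as reported, no allele comparison called a member, so no library was left out there in turn.

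With the replicate block, 2 members were called for sex at 10 months and 0 in every other comparison, as without it. Same-numbered livers of different groups had a median correlation of deviations of 0.17, 0.25 and 0.33 at 2, 6 and 10 months. For other livers of the same sex it was 0.11, 0.25 and 0.28. At these ages 21 of 56, 14 of 56 and 14 of 55 livers correlated best with their own number. How many would do so without pairing was not computed. Whether the shared numbers pair the livers was therefore not settled, and the difference was largest at 2 months. Libraries whose name carries the cage code of the other sex made no difference to any count of calls.

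The number of livers that stood out was 12 with a limit of 10 times the median, against 20. Without those 20, Pearson's r of *Mir133a-1* and *Mir1a-1* was 0.52, against 0.85. Depth limits the rarer members: a median liver holds 21 counts of *Mir133a-1*, at which a ratio of 42.6 per 1000 gives fewer than 1 count of *Mir1a-1*.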
